A study of Mus musculus with 4 samples.

Results

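The comparison described here is the early response of activated mouse CD4+ T cells to interferon alpha (IFNa), read as 1 array after 2 h of IFNa against 2 baseline arrays, 3 of the 4 arrays of the series. The cells came from spleens of male C57BL/6 mice aged 6 weeks and had been enriched by negative selection (EasySep), which is meant to remove the other cell types. All groups, baseline included, had been activated for 48 h with beads that bind CD3 and CD28. The baseline cells then received no cytokine. The treated cells received IFNa at 100 U/ml for 2 h or, on the remaining array, for 8 h. For both IFNa samples the preparation note mentions JAK inhibitors with a plus or minus sign, whereas the cytokine label gives only IFNa. The arrays compared were chosen by these labels, and the genes are all those with a row of their own on the array. Of 19752 such genes, 10699 lay above the middle of an array's signals on at least 1 array and were tested.

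Type I interferons bind a receptor made of Ifnar1 and Ifnar2, whose kinases Jak1 and Tyk2 phosphorylate STAT factors such as Stat2. A complex that holds Stat2 and Irf9 binds the interferon-stimulated response element (ISRE) in promoters and turns on antiviral genes within hours. T cells stimulated through their antigen receptor use another set of early genes, such as the NR4A and EGR factors, and feedback genes of the MAP kinase, NF-kB and G protein pathways.

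Each gene was read as the log2 of its RMA intensity, the background-corrected probe signal of its row. The difference was the 2 h value minus the mean of both baseline values. A gene was called when limma, fitted over all 10699 genes, gave a Benjamini-Hochberg adjusted p under 0.05. The spread in that model came from the 2 baseline arrays alone, and the single 2 h array was assumed to vary like them. Nothing in the labels says that the baseline arrays came from separate mice or cultures, so the p-values measure only the spread between these samples, which may be technical. Untreated cells cultured for a further 2 h were not analysed here, and the effects of IFNa and of that time cannot be told apart. The number of arrays limits the precision, and nothing replicates the 2 h values. A second reading, which needs no test, was how far the 2 h value lay past the nearer of the 2 baseline values.

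T cell markers were bright on all arrays, and some markers of other cell types also gave signal. Cd3e, a chain of the T cell receptor complex, read 12.77 and 12.91 at baseline and 12.80 at 2 h. Cd4 read 11.66 and 12.43 at baseline and 12.23 at 2 h. Of 6 T cell markers, all were above the array's median on each array. Among 13 myeloid and dendritic markers only 4 were bright enough to be tested and 7 lay below both baseline arrays at 2 h. The largest drop of these 7 was that of Lyz2 (8.74 and 8.36 at baseline, 7.63 at 2 h). Above both were 3, among them Fcgr3 (7.75 and 7.78 at baseline, 8.23 at 2 h) and Cd68 (8.04 and 8.08, then 8.15). The 13 markers' summed level on the log2 scale was 11.00 and 10.83 at baseline and 10.74 at 2 h. The sum over 6 B cell markers was 11.32 on each baseline array and 11.26 at 2 h, and that over Cd8a and Cd8b1 was 10.12 and 9.97 against 9.85. Of the 6 B cell markers 5 were above the array's median on each array. Cd8b1 read 9.78 and 9.68 at baseline and 9.57 at 2 h. The sum over 6 natural killer cell markers was 10.88 and 10.71 at baseline and 10.59 at 2 h, mostly from Nkg7 (10.32 and 10.16, then 9.91). The source of these signals was not tested. The sum over 4 markers of plasmacytoid dendritic cells was higher at 2 h, at 10.11 and 10.07 at baseline and 10.47 at 2 h, with 3 of the 4 above both baseline arrays. It includes Bst2, an antiviral gene that interferon itself induces (8.90 and 8.88, then 9.49). No marker of another cell type was called, and no row of the arrays reads 0 (lowest deposited intensity 10.3). In a bulk sample fewer cells of a type and less RNA per cell cannot be told apart.

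At 2 h, 117 genes were called higher, 1.09% of those tested, and 1 gene was called lower (0.00935%). By the reading against each baseline array, 133 genes lay at least 2-fold above the nearer one (1.24%) and 3 at least 2-fold below it (0.028%). At a 1.5-fold minimum these were 405 (3.79%) and 63 (0.589%). Without any minimum, 4765 genes lay above both baseline arrays (44.5%), 3532 below both (33.0%) and 2402 within them (22.5%). The 2-fold count depended on the baseline array used. Without baseline replicate 2 it was 332 higher and 34 lower, and without baseline replicate 1 it was 139 and 5. For comparison, 41 genes differed 2-fold between the baseline arrays themselves. The 2 h array correlated more closely with baseline array 2 (0.973) than with baseline array 1 (0.952). Genes higher on baseline array 2 than on array 1 also tended to be higher at 2 h. The slope of the 2 h difference on the difference between the baseline arrays was 0.575. How far this adds to rises of genes whose baseline values differed was not tested. Every one of the 117 called genes lay more than 2-fold past both baseline arrays, the smallest gap to the nearer being 1.03 on the log2 scale.

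The balance of rises and falls depended on the scaling. The interquartile range of the signals spanned 3.03 and 3.38 log2 units at baseline and 3.52 at 2 h. After quantile normalization, which removes that difference in width, 332 genes were called higher and 109 lower, so that 75.3% of the calls were rises against 99.2% without it. The median of all tested genes at 2 h was 0.06 on the deposited scale, -0.01 after quantile normalization and 0.15 after median centring. All 117 rises were called again under both scalings, which are more lenient settings with 332 and 291 genes called higher. Testing the dim genes as well ended 36 of the 117 calls, all those with an adjusted p of 0.0238 or above. Rises given below with such a p therefore hold only with the filter on dim genes.

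**Figure D1:**
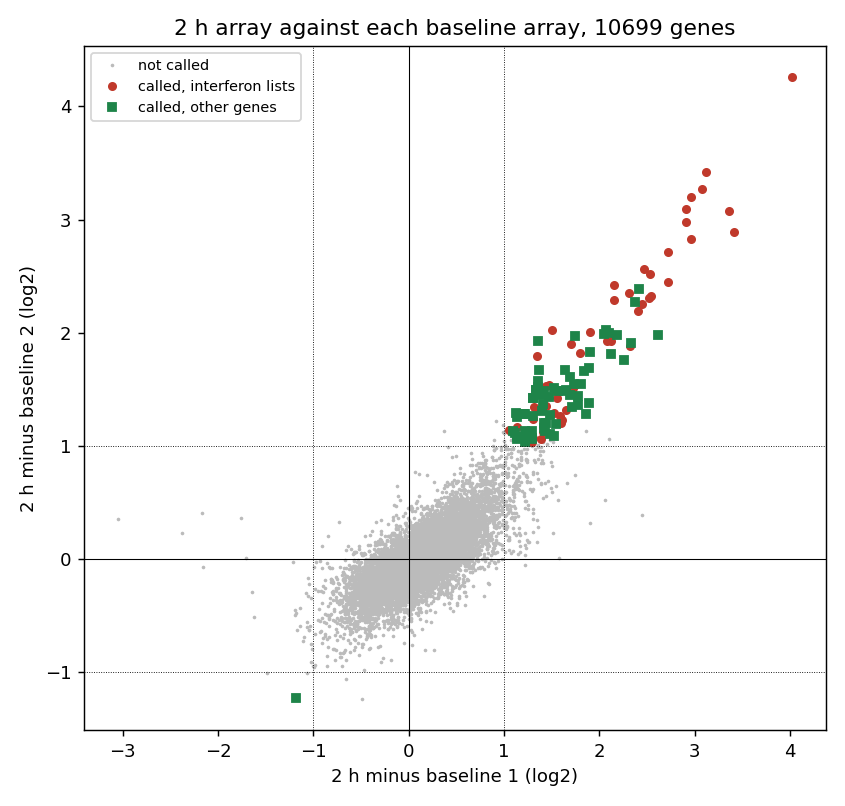
Each point is 1 of the 10699 tested genes, with its 2 h value minus baseline array 1 on the x axis and minus baseline array 2 on the y axis, both in log2 units; dotted lines mark 2-fold. The called genes of the interferon lists (red circles) and all other called genes (green squares) lie past 2-fold against each baseline array, and the single called fall lies at the lower left.

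Genes were grouped by 33 lists of 986 genes, of which 819 were tested. The 7 interferon lists held 51 of the 117 rises, with a median difference of 1.80 (1.10 to 4.14). A further 25 rises were in the lists of early response and T cell genes (median 1.53), and 41 were in no list (median 1.39). No list held a called fall. Counts of list members given below are to be read beside the shares over all tested genes. Those shares were 1.09% called higher, 44.5% above both baseline arrays and 33.0% below both. The 66 rises outside the interferon lists had a median of 1.44 and ran from 1.10 to 2.41. Many rises began from a dim signal. Of the 117 genes 33 lay below the middle of the signals on both baseline arrays, 13 of them in the interferon lists. These 33 passed the filter on dim genes only through an IFNa array, where they were high. Their choice for testing and their calls are therefore not independent. RMA can compress the fold of such genes, and the width of the signals at 2 h differs from that at baseline. Whether their differences are understated or overstated was not tested.

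**Figure D2:**
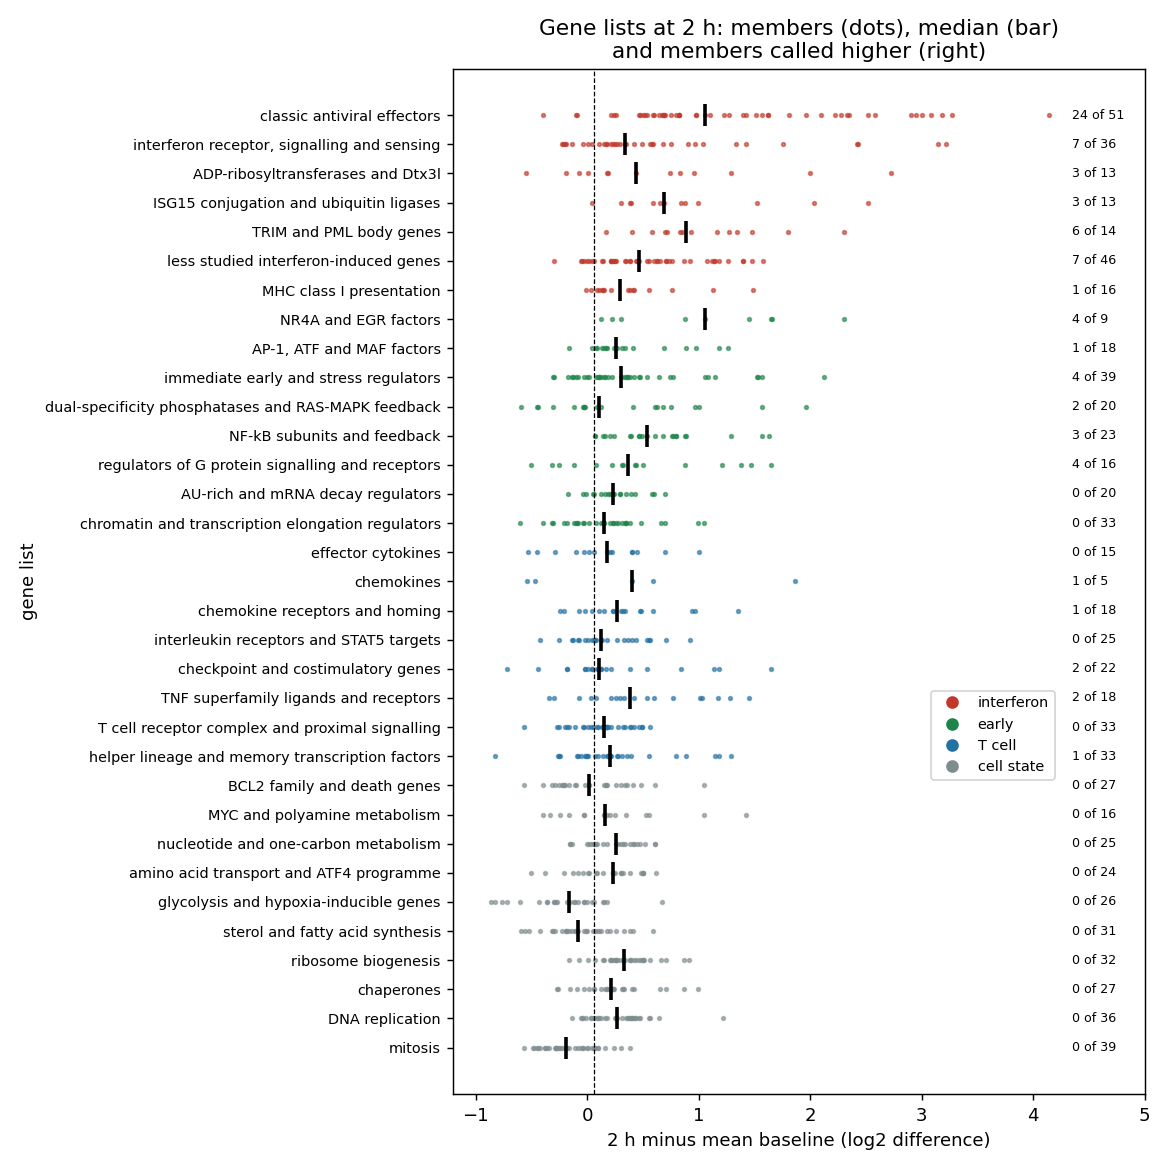
Dots are the tested members of each gene list, at their 2 h value minus the mean baseline value (x axis, log2 difference), black bars are the list medians and the dashed line is the median of all tested genes, 0.06. The numbers at the right give the members called higher of those tested, from 24 of 51 antiviral effectors down to 0 of 39 mitosis genes.

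Promoter sequence played no part in choosing the genes and was set beside their values. The RefSeq promoter table of GRCm38.p6, with 250 bases before and 50 after each gene start, held 83 of the 117 genes. The ISRE core was searched on both strands as GAAANNGAAA. It was present in 22 of 39 called genes of the interferon lists (56.4%) and in 28 of 118 list members tested but not called (23.7%). Outside the interferon lists it was present in 5 of 44 called genes (11.4%). The share over all tested genes was 3.61% (311 of 8607) and that over all promoters listed 3.99% (1079 of 27025). Within the interferon lists, the median rise was 1.89 for the 22 called genes with the core and 1.52 for the 17 without. Their ranges were nearly the same, 1.10 to 3.27 with the core and 1.12 to 3.15 without. A match describes these letters in this window and is not evidence of binding. The following stretches, cut upstream of the gene start and written along the gene's strand, show the core in capitals. Rsad2, Ifit1 and Trim30a stand for the interferon lists, and Jaml, Cxcl10, Bcor and Fosl2 are named rises from outside them.
Rsad2 (chr12:26456523-26456612, strand -): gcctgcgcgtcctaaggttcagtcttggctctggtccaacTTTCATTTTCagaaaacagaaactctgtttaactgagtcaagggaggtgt
Ifit1 (chr19:34640745-34640853, strand +): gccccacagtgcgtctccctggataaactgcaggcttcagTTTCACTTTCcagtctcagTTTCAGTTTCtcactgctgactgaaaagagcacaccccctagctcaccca
Trim30a (chr7:104465194-104465269, strand -): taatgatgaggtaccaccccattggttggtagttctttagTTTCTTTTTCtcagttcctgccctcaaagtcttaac
Jaml (chr9:45079107-45079182, strand +): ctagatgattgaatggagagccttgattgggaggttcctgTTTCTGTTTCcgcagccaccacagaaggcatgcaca
Cxcl10 (chr5:92349053-92349139, strand -): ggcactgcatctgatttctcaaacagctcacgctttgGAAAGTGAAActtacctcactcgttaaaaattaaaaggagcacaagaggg
Bcor (chrX:12160404-12160493, strand -): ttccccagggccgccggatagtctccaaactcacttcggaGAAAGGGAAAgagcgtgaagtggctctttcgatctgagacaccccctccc
Fosl2 (chr5:32136222-32136300, strand +): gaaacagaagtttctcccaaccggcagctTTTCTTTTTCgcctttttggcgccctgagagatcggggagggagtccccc
Ifit1 carried 2 copies of the core in this stretch, and the other 6 carried 1 each. The fifth match outside the interferon lists was Gm12185, a predicted gene with 1 gene between it and Irgm1, a called gene of those lists. The 11.4% depends on which genes the interferon lists hold, since Cxcl10 was placed in the chemokine list and Gm12185 in none.

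Other motifs were searched in the same way. The CArG box, the site of serum response factor (CC, 6 of A or T, GG), was found in 3 of 44 called genes outside the interferon lists (6.82%), in none of the 39 inside them and in 1.57% of all tested genes. Those 3 were Arrdc4, Dusp5 and Egr2. The 2 that belong to the early lists are shown with the box in capitals, and Dusp5 carried 2 boxes next to each other.
Egr2 (chr10:67537454-67537543, strand +): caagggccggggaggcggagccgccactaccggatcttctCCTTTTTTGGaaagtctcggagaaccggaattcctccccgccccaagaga
Dusp5 (chr19:53529023-53529122, strand +): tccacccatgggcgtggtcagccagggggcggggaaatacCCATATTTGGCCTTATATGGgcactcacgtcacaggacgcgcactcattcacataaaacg
The AP-1 site (TGACTCA or TGAGTCA) was in 6 of those 44 promoters (13.6%) against 4.21% of all tested genes. It was in 11.2% of tested T cell list members, 4.7% of early list members and 10.3% of called interferon list genes. The gamma-activated site bound by STAT dimers (TTCNNNGAA) was in 8 of the 44 (18.2%) against 8.23% of all tested genes. The share was 18.4% over tested members of the T cell lists and 12.8% over those of the early lists. In the interferon lists it was 10.3% of called genes and 19.5% of members not called. The 18.2% was thus close to the share over all tested T cell list members. A gamma-activated site can share bases with an ISRE core. The cyclic AMP response element (TGACGTCA) was in 1 of the 44, Nfkbid (2.27%), against 3.69%.

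Of the antiviral effectors 24 of 51 were called. The highest was Rtp4, an interferon-induced chaperone of G protein-coupled receptors. It read 6.59 and 6.34 at baseline and 10.61 at 2 h, a difference of 4.14 (SE 0.21, adjusted p = 0.000281) or 17.6-fold. Rsad2, which makes an antiviral nucleotide, read 6.92 and 6.72 at baseline and lay 3.08 above the nearer of these at 2 h (difference 3.18, SE 0.21, adjusted p = 0.000459). Its chromosomal neighbour Cmpk2, a nucleotide kinase, read 7.51 and 7.42 at baseline and 9.98 at 2 h (2.52, SE 0.20, adjusted p = 0.000902). In each of the 3 genes the 2 h value stood far above a pair of baseline values that differed little. Other large rises of the list were Ifit3 (3.27) and the oligoadenylate synthetase relative Oasl2 (3.08), the dynamin-like GTPases Mx2 (2.95) and Mx1 (2.58), and Ifi208 (2.90). The list's median was 1.06, and 48 of its 51 members lay above both baseline arrays.

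Receptor and signalling genes moved unevenly, with 7 of 36 called and a median of 0.34. Ifnar1 read 10.23 and 10.51 at baseline and 11.27 at 2 h, above both arrays but not called (0.90, adjusted p = 0.138). Ifnar2 read 11.04 and 10.98 at baseline and 11.05 at 2 h, a difference of 0.04. Stat2 read 9.12 and 9.50 at baseline and 10.73 at 2 h (1.42, SE 0.23, adjusted p = 0.0261). Irf9 read 10.16 and 10.28 at baseline and 11.26 at 2 h, just short of the threshold (1.04, adjusted p = 0.0613). Stat2 and Irf9 thus both lay above both baseline arrays, and Stat2 passed the test.

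Usp18, a protease that removes ISG15 and blocks signalling at Ifnar2, was the highest of that list. It read 8.36 and 8.64 at baseline and 11.72 at 2 h (3.22, SE 0.22, adjusted p = 0.000459). Irf7, a factor that amplifies interferon responses, read 7.28 and 7.80 at baseline and 10.69 at 2 h (3.15, SE 0.25, adjusted p = 0.000902). The classical suppressors of JAK-STAT signalling did not stand apart at this time. Socs1 read 10.22 and 10.59 at baseline and 10.67 at 2 h (0.27, adjusted p = 0.658), and Socs3 read 9.15 and 9.36 at baseline and 9.21 at 2 h, within the baseline arrays. Irf1, a target of STAT dimers, read 10.78 and 10.99 at baseline and 11.11 at 2 h (0.23, adjusted p = 0.68). The 3 cytoplasmic RNA helicases of the list all rose: Ifih1 by 2.43, Dhx58 by 2.42 and Ddx58 by 1.33. Tlr7, an endosomal RNA receptor, rose by 1.76.

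Among ADP-ribosyltransferases 3 of 13 were called. Parp12 read 7.55 and 7.57 at baseline and 10.27 at 2 h (2.72, SE 0.20, adjusted p = 0.000602). Parp14 read 9.83 and 9.98 at baseline and 11.90 at 2 h (2.00, SE 0.21, adjusted p = 0.00269). Parp9 rose by 1.29 (adjusted p = 0.0288). Its partner, the ubiquitin ligase Dtx3l, read 11.33 and 11.45 at baseline and 12.35 at 2 h, above both but not called (0.96, adjusted p = 0.0828). The median of the list was 0.44, and 9 of its 13 members lay above both baseline arrays.

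In the ISG15 and ubiquitin ligase list 3 of 13 were called and 12 of 13 lay above both baseline arrays. Xaf1, a binding partner of the apoptosis inhibitor XIAP, read 8.22 on each baseline array and 10.74 at 2 h (2.52, SE 0.20, adjusted p = 0.000902). Rnf213, a very large ubiquitin ligase, read 9.65 and 9.83 at baseline and 11.76 at 2 h (2.03, SE 0.21, adjusted p = 0.00269). Its second row on the array gave a like difference, 2.21. Trim25, a ligase that acts on the sensor encoded by Ddx58, rose by 1.52 (adjusted p = 0.0105).

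The TRIM and PML body list had 6 of 14 called and a median of 0.89. Phf11c read 8.41 and 8.63 at baseline and 10.82 at 2 h (2.30, SE 0.21, adjusted p = 0.00151). Trim30d rose by 1.80 and its neighbour Trim30a by 1.48, from a baseline that was already high (11.15 and 11.06). Trim12c rose by 1.34 and Trim12a by 1.27 (adjusted p = 0.0238). Near-identical copies such as these, the Ifi200, Oas and Ctla2 genes may share probe signal, so the split between copies is uncertain. The lesser known interferon genes had 7 of 46 called, led by Helz2, a helicase (1.48), Stx11, a syntaxin needed for cytotoxic granule release (1.40), and Tmem184b (1.40, adjusted p = 0.0304). In the MHC class I list only H2-T24, a non-classical class I gene, was called of 16. It read 9.23 and 9.37 at baseline and 10.78 at 2 h (1.49, SE 0.21, adjusted p = 0.0128). B2m, the shared light chain, read 13.95 and 13.84 at baseline and 13.88 at 2 h, within the baseline arrays.

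**Figure D3:**
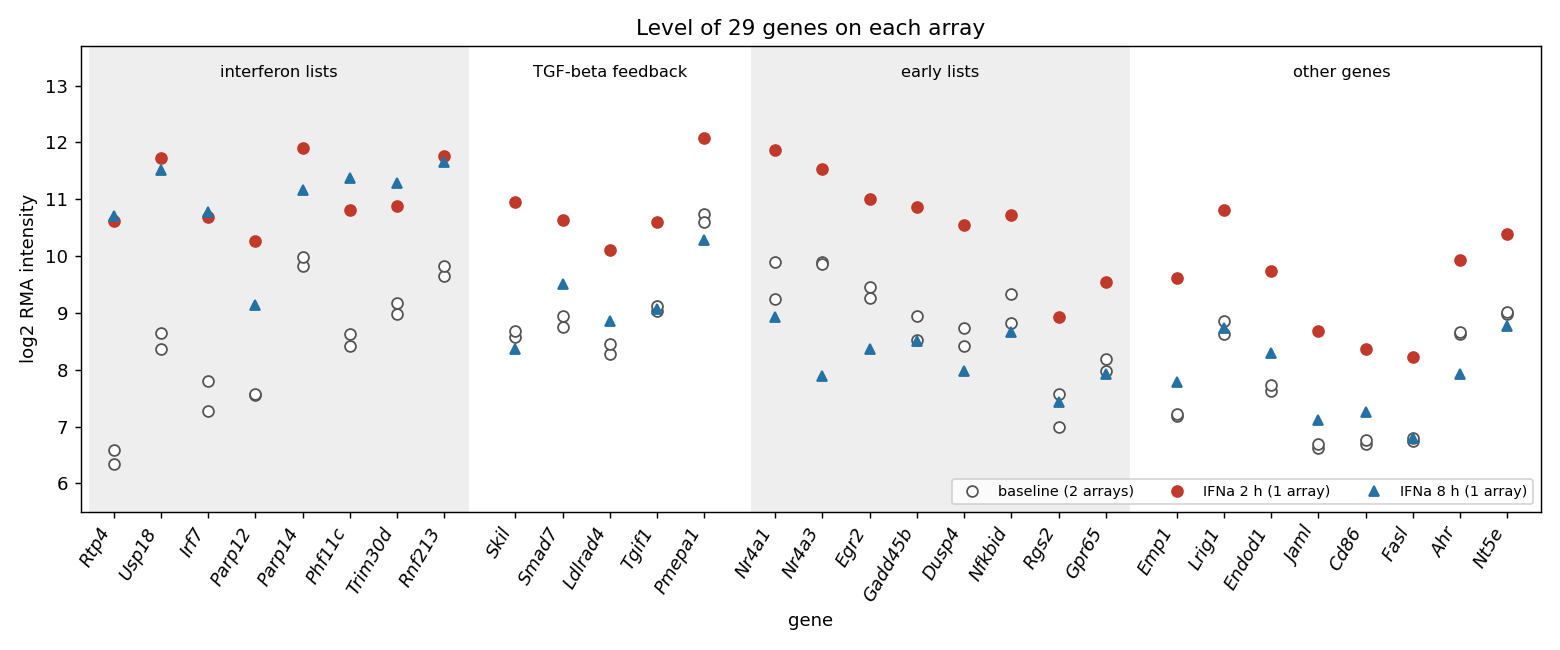
Log2 RMA intensity (y axis) of 29 genes (x axis) on each array: open circles for the 2 baseline arrays, red circles for IFNa 2 h and blue triangles for IFNa 8 h. In all 29 the 2 h value lies above both baseline values; the TGF-beta feedback group was put together after its values were seen.

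Outside the interferon lists, the NR4A and EGR factors had the largest share of rises. Of 9 members 4 were called, the median was 1.06, and all 9 lay above both baseline arrays. Nr4a1, an orphan nuclear receptor known as an early reporter of T cell receptor signalling, read 9.24 and 9.89 at baseline and 11.87 at 2 h (2.30, SE 0.28, adjusted p = 0.00676). Nr4a3 read 9.89 and 9.86 at baseline and 11.53 at 2 h (1.66, SE 0.20, adjusted p = 0.00682). Nr4a2 read 7.93 and 7.86 at baseline and 9.34 at 2 h (1.45, SE 0.20, adjusted p = 0.0132). All 3 members of the family thus rose by 1.45 to 2.30. Egr2, a factor that limits T cell activation, read 9.26 and 9.45 at baseline and 11.00 at 2 h (1.65, SE 0.21, adjusted p = 0.00886). Egr3 (1.06, adjusted p = 0.0889) and Egr1 (0.88, adjusted p = 0.195) lay above both baseline arrays without a call.

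The AP-1 family had a median of 0.26 (0.38 against baseline array 1 alone, 0.13 against array 2). Only Fosl2, a FOS-related factor, was called of 18 (1.18, adjusted p = 0.0346). Atf3 read 8.61 and 9.03 at baseline and 10.08 at 2 h, more than 2-fold above both but short of the threshold (1.26, adjusted p = 0.0517). Fos (0.69, adjusted p = 0.259) and Junb (0.41, adjusted p = 0.567) gave smaller differences. Of 39 immediate early and stress genes 4 were called. Gadd45b, which couples stress signals to p38 MAP kinase, read 8.53 and 8.95 at baseline and 10.87 at 2 h (2.12, SE 0.24, adjusted p = 0.00434). Phlda1 rose by 1.57, Ier5 by 1.53 and Klf10, a zinc finger factor induced by TGF-beta, by 1.52.

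In the MAP kinase list 2 of 20 were called, both nuclear dual-specificity phosphatases. Dusp4 read 8.42 and 8.73 at baseline and 10.54 at 2 h (1.96, SE 0.22, adjusted p = 0.00465). Dusp5 read 9.78 and 10.20 at baseline and 11.56 at 2 h (1.57, SE 0.24, adjusted p = 0.0183). Other members of the list ran down to -0.59, and its median was 0.11 (0.18 against baseline array 1 alone, 0.06 against array 2). In the NF-kB list 22 of 23 lay above both baseline arrays, against 44.5% of all tested genes, and 3 were called. The median was 0.54 (0.64 against baseline array 1 alone, 0.46 against array 2, 0.42 after quantile normalization). Nfkbid, a nuclear inhibitor-like cofactor, read 8.83 and 9.34 at baseline and 10.72 at 2 h (1.63, SE 0.25, adjusted p = 0.0196). Relb and Nfkb2, the subunits of the non-canonical pathway, rose by 1.57 (adjusted p = 0.0316) and 1.29 (adjusted p = 0.0417). The inhibitors Nfkbia (0.80, adjusted p = 0.155) and Tnfaip3 (0.76, adjusted p = 0.181) lay above both baseline arrays without a call.

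Of 16 regulators and receptors of G protein signalling, 4 were called. Rgs1, which speeds the shut-off of chemokine receptor signalling, read 9.46 and 9.67 at baseline and 10.94 at 2 h (1.38, SE 0.21, adjusted p = 0.0195). Rgs2, which lies beside it with 1 gene between, read 7.57 and 7.0 at baseline and 8.93 at 2 h (1.65, SE 0.26, adjusted p = 0.0254). Gpr65, a proton-sensing receptor, read 8.19 and 7.98 at baseline and 9.55 at 2 h (1.47, SE 0.21, adjusted p = 0.0155). P2ry14, a receptor for UDP-sugars, rose by 1.21 (adjusted p = 0.0342). The baseline values of Rgs2 differed by more than those of the other 3.

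A group of 5 genes in no list, put together only after their values were seen, encode brakes on TGF-beta signalling. Skil, a repressor that binds SMAD proteins, read 8.58 and 8.69 at baseline and 10.96 at 2 h (2.32, SE 0.20, adjusted p = 0.00118). Smad7, an inhibitory SMAD, read 8.75 and 8.94 at baseline and 10.64 at 2 h (1.79, SE 0.21, adjusted p = 0.00551). Ldlrad4, a membrane protein that sequesters SMADs, read 8.27 and 8.45 at baseline and 10.11 at 2 h (1.75, SE 0.21, adjusted p = 0.00607). All 3 lay well above both baseline arrays, and Skil was the second highest rise outside the interferon lists. Tgif1, a SMAD corepressor, read 9.03 and 9.13 at baseline and 10.60 at 2 h (1.52, SE 0.20, adjusted p = 0.0107). Pmepa1, another membrane inhibitor of this pathway, read 10.74 and 10.60 at baseline and 12.08 at 2 h (1.41, SE 0.21, adjusted p = 0.0156). Of 14 other genes of the pathway, ligand, receptors, SMADs and their regulators, none was called, against 1.09% of all tested genes called higher. Their differences ran from -0.09 to 0.91, and 10 lay above both baseline arrays, against 44.5% of all tested genes. The largest of these were Tgfbr1, a receptor chain (0.91, adjusted p = 0.107), and Ski, the relative of Skil (0.89, adjusted p = 0.112). Tgfb1 itself differed by 0.02. Because the 5 were grouped by how they moved, their count supports nothing by itself.

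Of 169 tested members of the lists of T cell genes 7 were called, mostly single surface and effector genes, and 6 of them are described here. Cd86, a costimulatory ligand best known from antigen-presenting cells, read 6.69 and 6.77 at baseline and 8.37 at 2 h (1.65, SE 0.20, adjusted p = 0.00726). Cxcl10, a chemokine that binds Cxcr3, read 6.78 and 6.56 at baseline and 8.54 at 2 h (1.86, SE 0.21, adjusted p = 0.00475). Ccrl2, which is in none of these lists, is an atypical chemokine receptor also found on myeloid cells. It read 6.59 and 6.75 at baseline and 8.24 at 2 h (1.57, SE 0.21, adjusted p = 0.0104). All 3 began dim and are also known from antigen-presenting cells, some of whose markers were higher at 2 h and others lower, as given above. The part of other cell types in these 3 values was not tested. Fasl, the ligand of the death receptor Fas, read 6.74 and 6.79 at baseline and 8.22 at 2 h (1.45, SE 0.20, adjusted p = 0.0131). Tnfsf8, the ligand of CD30, rose by 1.28 (adjusted p = 0.0343). Ccr8, a chemokine receptor, read 10.18 and 10.26 at baseline and 11.57 at 2 h (1.35, SE 0.20, adjusted p = 0.0183). Pdcd1lg2, a ligand of PD-1, rose by 1.14 (adjusted p = 0.0439), while the other ligand, Cd274, missed the threshold at 1.18 (adjusted p = 0.0567).

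No cytokine was called of 15, and over all tested genes 1.09% were called higher. Il2 read 9.81 and 9.23 at baseline and 10.22 at 2 h (0.70, adjusted p = 0.359), and Ifng read 7.56 and 8.00 at baseline and 8.18 at 2 h (0.40, adjusted p = 0.527). Cd69, an activation antigen that retains T cells in tissue, read 10.86 and 10.93 at baseline and 11.83 at 2 h (0.94, adjusted p = 0.0862). Its binding partner S1pr1, the receptor for exit from lymphoid organs, differed by 0.59 (adjusted p = 0.319). Of 33 helper lineage factors only Ahr, a ligand-activated factor, was called. It read 8.62 and 8.66 at baseline and 9.93 at 2 h (1.29, SE 0.20, adjusted p = 0.022). None of 33 T cell receptor signalling genes and none of 25 interleukin receptor and STAT5 genes was called. At the 1.09% called higher over all tested genes, lists of this size would often hold no call. Zbtb7b, the factor that commits cells to the CD4 lineage, gave the lowest value of the helper list, at 9.97 and 9.80 at baseline and 9.06 at 2 h (-0.83, adjusted p = 0.155).

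The 41 rises in no list were led by Emp1, a tetraspan membrane protein. It read 7.19 and 7.22 at baseline and 9.61 at 2 h (2.41, SE 0.20, adjusted p = 0.00103), the largest rise outside the interferon lists. Lrig1, a membrane protein that restrains receptors of the EGF family, read 8.63 and 8.85 at baseline and 10.82 at 2 h (2.08, SE 0.21, adjusted p = 0.00256). Endod1 read 7.63 and 7.73 at baseline and 9.73 at 2 h (2.05, SE 0.20, adjusted p = 0.00233). None of these 3 belongs to a pathway with a list here. Ccnyl1, a cyclin Y relative, read 7.36 and 7.41 at baseline and 9.42 at 2 h (2.04, SE 0.20, adjusted p = 0.00233). Jaml, an adhesion molecule with a costimulatory role in T cells, read 6.63 and 6.70 at baseline and 8.68 at 2 h (2.02, SE 0.20, adjusted p = 0.00242). Spsb1, a substrate adaptor of a ubiquitin ligase, read 8.20 and 8.70 at baseline and 10.46 at 2 h (2.01, SE 0.25, adjusted p = 0.00761). L3mbtl3, a reader of methylated lysine, read 8.84 and 8.91 at baseline and 10.74 at 2 h (1.87, SE 0.20, adjusted p = 0.00371).

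Sdc3, a heparan sulfate proteoglycan, rose by 1.61, Tent5a, a non-canonical poly(A) polymerase, by 1.55 and Mt2, a metal-binding metallothionein, by 1.52. Nt5e encodes CD73, the ectoenzyme that makes adenosine. It read 8.98 and 9.02 at baseline and 10.39 at 2 h (1.39, SE 0.20, adjusted p = 0.0156). Bcor, a corepressor that binds BCL6, rose by 1.18 (adjusted p = 0.0409), while Bcl6 itself differed by 0.89 (adjusted p = 0.114). Dennd4a had 9 rows on the array, and all of them were higher, by 1.04 to 1.93. The row used rose by 1.20 (adjusted p = 0.0334). Plagl1, a zinc finger factor, rose by 1.42, Rnf149, a ubiquitin ligase, by 1.44 and Tbc1d30, a Rab regulator, by 1.68.

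Some of the rises lay close together on the chromosomes. Of 112 called genes placed in the RefSeq gene order, 8 were next to another called gene, in 4 pairs: Rsad2 and Cmpk2, Oas2 and Oas3, Trim30a and Trim30d, and Ifi213 and Ifi214. In 9 more pairs 1 gene lay between. These were mostly families of the interferon lists such as Parp9 and Parp14, but also Rgs1 and Rgs2, and Ctla2a and Ctla2b. No matching share over all tested genes was counted, so the pairs are given as positions only. Several are related copies that may share probe signal, as said above.

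The array also carries rows for microRNA genes, which read the precursor or host transcript and not the mature microRNA. Of 72 such rows tested 2 were called, against 1.09% of all tested genes, and the median of the 72 was -0.29. Dim genes in general lay lower at 2 h on the deposited scale. The 2675 tested genes with the dimmest baseline signal had a median of -0.07 (0.01 after quantile normalization). Of these 31.6% lay above both baseline arrays, against 44.5% of all tested genes. Whether the median of the microRNA rows differs from that of equally dim genes was not tested. Mir15b read 6.36 and 6.73 at baseline and 7.91 at 2 h (1.37, SE 0.23, adjusted p = 0.0304). Mir18 read 6.77 and 7.20 at baseline and 8.30 at 2 h (1.31, SE 0.24, adjusted p = 0.0451). The products of these 2 genes, from RefSeq, are shown with the seed (bases 2 to 8) in capitals, and the 4 seeds differ.
mmu-miR-15b-5p: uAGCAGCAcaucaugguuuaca
mmu-miR-15b-3p: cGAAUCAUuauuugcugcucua
mmu-miR-18a-5p: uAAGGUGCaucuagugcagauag
mmu-miR-18a-3p: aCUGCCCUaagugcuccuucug
Mir15b lies within Smc4, a condensin gene, which read 11.99 and 12.06 at baseline and 12.07 at 2 h, a difference of 0.05. Mir18 belongs to the cluster transcribed as Mir17hg, whose row differed by 0.69. The neighbouring Mir19a row was too dim to be tested, at 4.37 and 5.09 at baseline and 6.59 at 2 h, and so were those of Mir17, Mir19b-1 and Mir20a of the same cluster, with differences of 0.23, 0.54 and 0.02.

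Falls were few on the deposited scale. Abhd18, a hydrolase-like gene, read 9.66 and 9.71 at baseline and 8.48 at 2 h (-1.21, SE 0.20, adjusted p = 0.0304), the only called fall and, like the smaller rises, one that was not called when dim genes were tested too. H1f2, a linker histone, read 11.36 and 11.31 at baseline and 10.29 at 2 h (-1.04, adjusted p = 0.0582). Wfdc17 read 7.67 and 7.19 at baseline and 6.18 at 2 h (-1.25, adjusted p = 0.0627). These were the 3 genes at least 2-fold below both baseline arrays, and 2 of them had no call. Just short of 2-fold were Napepld, Hilpda, H3c15 and Mr1, at 0.96, 0.95, 0.94 and 0.91 log2 units below the nearer baseline array.

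Lists of metabolic, survival, chaperone and cell cycle genes held no call among 283 tested members, where 1.09% of all tested genes were called higher. Glycolysis and hypoxia-inducible genes had a median of -0.16 (-0.27 after quantile normalization, -0.06 with centred arrays), or -0.01 against baseline array 1 alone and -0.25 against baseline array 2 alone, and 14 of 26 lay below both baseline arrays against 2 above. Slc2a1, the main glucose transporter of activated T cells, read 11.32 and 12.07 at baseline and 10.83 at 2 h (-0.86, adjusted p = 0.314). After quantile normalization 5 members of that list and 2 of the sterol list were called lower. The sterol list itself had a median of -0.08, which changed sign to 0.02 with centred arrays and to 0.07 against baseline array 1 alone (-0.24 against array 2). Mitosis genes had a median of -0.19 (-0.29 after quantile normalization, -0.09 with centred arrays). Of these 23 of 39 lay below both baseline arrays, against 33.0% of all tested genes. DNA replication genes had a median of 0.27 (0.35 against baseline array 1 alone, 0.16 against array 2, 0.14 after quantile normalization). Ribosome biogenesis genes had one of 0.33 (0.39 against array 1 alone, 0.25 against array 2, 0.20 after quantile normalization). Above both baseline arrays lay 28 of 36 and 28 of 32 of them, against 44.5% of all tested genes. Myc, which drives growth of activated T cells, read 11.88 and 12.05 at baseline and 11.94 at 2 h, within the baseline arrays.

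The 8 h array was set against the same 2 baseline arrays, so its values are given side by side and not as a second test. Its signals spanned an interquartile range of 2.71 log2 units, narrower than on the other arrays, and its values are on the deposited scale. The 51 rises of the interferon lists had a median of 1.80 at 2 h and 1.63 at 8 h, and the other 66 had 1.44 at 2 h and -0.07 at 8 h. Rtp4 read 10.70 at 8 h, Usp18 11.52 and Irf7 10.77, all near their 2 h values. Skil read 8.37 at 8 h, Nr4a1 8.93 and Gadd45b 8.50, each below both of its baseline values. At 8 h 55.9% of all tested genes lay below both baseline arrays and 24.4% above both, and limma called 3.35% lower and 0.654% higher. Set directly against the 2 h array, the 8 h array had 10.8% of all tested genes called lower and 1.46% higher. Nr4a3 read 7.89 at 8 h, a difference of -1.99 from baseline (SE 0.20, adjusted p = 0.00239). Of the 66 other rises 25 still lay above both baseline arrays at 8 h (37.9%), and 5 were called higher there. They divide into 25 genes of other lists, with a median of -0.25 at 8 h and 4 above both baseline arrays, and 41 genes in no list, with a median of 0.13 and 21 above both (51.2%). Of the 51 interferon genes 48 lay above both at 8 h. Gbp5, Stx11 and N4bp1 were the exceptions and read 8.67, 8.70 and 9.29 at 8 h, each below both of its baseline values. Sdc3, in no list, read 9.34 at 2 h and 9.28 at 8 h.

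**Figure D4:**
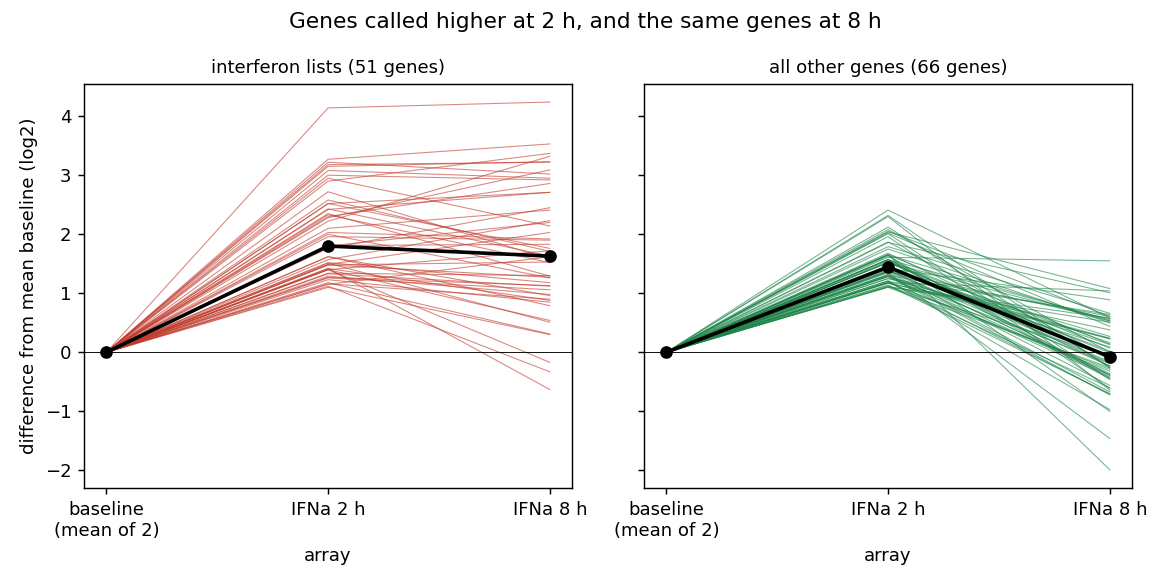
Lines join, for each gene called higher at 2 h, its difference from the mean baseline (y axis, log2) at baseline, 2 h and 8 h, for 51 genes of the interferon lists (left) and 66 other genes (right), with the group median in black. The medians go from 1.80 to 1.63 on the left and from 1.44 to -0.07 on the right; the genes were chosen for their high 2 h value, and both times share the baseline arrays.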

How the data were processed

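Each sample of splenic CD4+ T cell RNA was hybridised to an Affymetrix mouse gene array. The values deposited by the authors are linear intensity values. The submitters' processing notes name RMA and Affymetrix Power Tools without versions. Array medians ran from 176 to 200 in deposited units, so the arrays had not been brought to 1 distribution. The deposited values were put on the log2 scale here with no pseudocount.

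Of 24922 rows, 21425 carried 1 gene symbol in the platform annotation, 1399 several and 2098 none. Rows with 1 symbol were used. For 921 genes with more than 1 row the row with the highest mean was taken. A gene was tested if any array showed it above that array's median row, and 9053 were set aside as dim. The test was limma's (3.58.1, in R 4.3.3), two-sided, with a mean for each of the groups baseline (2 arrays), IFNa 2 h (1) and IFNa 8 h (1). The baseline arrays gave 1 residual degree of freedom, and the prior variance carried 7.46 (prior SD 0.175 in log2 units). The script was tested on repeated sets of simulated data, where large changes were recovered, 2-fold changes only in part, and false calls were on average more frequent than the nominal rate and varied widely between sets.

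The genes named were drawn from the 15 largest called rises, the largest falls, the 25 largest called rises outside the interferon lists, up to 4 called members of each list (or 2 as values) and a set of fixed genes. Not every gene these rules took is named, and list members without a call are mostly given as counts and medians. Further genes were named after their values were seen. The comparison, the members and the gene lists were chosen with earlier results of these data known. Of the listed genes, 7 were found through an older symbol. RefSeq tables of GRCm38.p6 gave gene order, promoters and microRNA sequences. The alternatives tried were 2 scalings, 2 filters on dim genes, the mean of a gene's rows, 16 added before log2, 2 other priors, an adjusted p under 0.1, other fold minimums, and leaving out each baseline array or the 8 h array.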

Additional observations from a re-analysis of the deposited data

Results flagged for a closer look

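Genes called higher at 2 h differed between the 2 times by the direct test of 8 h against 2 h (limma, Benjamini-Hochberg adjusted p under 0.05 over all 10699 genes, 1 array at each time). Among the 51 rises of the interferon lists, 6 were lower at 8 h than at 2 h and 1 was higher. Over all tested genes 10.8% were lower and 1.46% higher. Among the 66 rises outside those lists, 56 were lower at 8 h than at 2 h and 0 were higher. The steepest of the named genes was Nr4a3, at -3.64 from 2 h to 8 h (SE 0.23, adjusted p = 0.00161). In the interferon lists Parp12 read 10.27 at 2 h and 9.14 at 8 h (adjusted p = 0.0246), and Ifi214 read 10.12 and then 11.22 (adjusted p = 0.0281). The genes had been picked for a high 2 h value, in both groups, on the same array that the test subtracts. The interquartile range of the signals spanned 2.71 log2 units at 8 h against 3.52 at 2 h. The comparison of 8 h with 2 h is given on the deposited scale only.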

How the results depend on the processing

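The count of called genes, 118 in both directions, was 441 after quantile normalization, 298 with arrays centred on their medians and 188 at an adjusted p under 0.1. It was within 1.5 times under the other 7 settings, from 84 with no filter on dim genes to 135 with an intensity trend. All 117 rises were called again under both scalings, which called more genes and so were more lenient settings, and 77 in every setting. The count of genes at least 2-fold past the nearer baseline array, 136, was 468 at a 1.5-fold minimum and 8297 with none. It ranged from 144 to 366 when 1 baseline array was left out, since the nearer of 2 arrays is the stricter mark, and from 108 to 159 under the other settings. Among the called genes named in the text none changed direction. Called genes could not be counted without a baseline array, because no residual degree of freedom among samples is left. No paired analysis was possible because the groups share only the replicate number 1. The 2 h values rest on 1 array, and precision is limited by the number of arrays.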
